A study of Mus musculus with 6 samples.

Results

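Hepcidin, transferrin and its receptors, ferroportin, the ferritin chains, and the upstream genes Bmp6 and Hfe set how iron is taken up, stored and released. Their transcripts were followed in cells sorted from fetal mouse liver. The 10 genes (Hamp, Hamp2, Trf, Tfrc, Tfr2, Slc40a1, Fth1, Ftl1, Bmp6 and Hfe) were chosen by name and were all found among the 52550 genes listed. Levels are in TPM, transcript counts corrected for gene length and scaled to the same total in every library. A minimum mean of 1 TPM over the libraries was passed by 9 members, which were tested, and Hamp2 was too low for a test.

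The cells were GFP-positive cells of CD-1 Sox9-GFP mouse embryos, sorted at embryonic stage E16.5 or E18.5, which the labels give as day 16 and day 18. Each stage had 3 libraries, named replicates A, B and C, each made from pooled livers that had been dissociated and depleted of blood lineages. All 6 libraries carried the reporter, which marks any cell with an active Sox9 gene and not cholangiocytes alone, and there was no GFP-negative or adult group. The sources do not say whether libraries of a stage came from separate litters, so p-values measure the spread between these libraries.

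Iron circulates bound to transferrin and enters cells through the transferrin receptor TFRC. Inside the cell it is stored in ferritin, a shell of H (Fth1) and L (Ftl1) chains, and it leaves through ferroportin (Slc40a1). The hormone hepcidin (Hamp), made mainly by hepatocytes, binds ferroportin and causes its degradation. Its transcription is driven by BMP6 through SMAD proteins, with TFR2 and HFE on the hepatocyte surface reporting transferrin saturation. Translation of the ferritin and ferroportin mRNAs, and stability of the Tfrc mRNA, are controlled by iron regulatory proteins that bind a short hairpin, the iron responsive element.

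The markers of the sorted cells bear on all the levels below. The summed level of 12 hepatoblast and hepatocyte markers (among them Alb, Afp and Ttr) ranged from 186141 to 236502 TPM at E16.5 and from 46326 to 108816 TPM at E18.5, and 7 of the 12 passed the test as lower. The 12 cholangiocyte markers (among them Sox9, Krt19 and Spp1) went from 865 to 2766 TPM up to 8541 to 14468 TPM, with 10 of 12 higher. All 10 megakaryocyte markers were lower at E18.5 (3341 to 9666 TPM at E16.5, 88.5 to 767 TPM at E18.5). E18.5 replicate B stood apart, with the lowest hepatoblast sum (46326 TPM) and the highest erythroid sum (600 TPM, against 94 and 132 TPM in replicates A and C). Mesenchyme markers summed to 175 to 343 TPM and 328 to 824 TPM (3 of 11 higher), and leukocyte markers to 69.5 to 98.2 TPM and 53 to 200 TPM (2 of 6 tested higher, with E18.5 replicate B again the highest). Reads could be recovered from the TPM values for 49584 of the 52550 genes listed. They summed to 23197101 to 26210449 reads per E16.5 library and 13096148 to 22647704 per E18.5 library. These sums leave out the other genes, among them the abundant Ahsg, Ttr and Rbp4. In bulk samples of this kind, fewer cells of a type and less RNA per cell cannot be told apart.

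Hepcidin has 2 gene copies in the mouse, and the stretches before their start sites are shown first because a SMAD-type motif differs between them. These are the 129 bases up to the start site on the minus strand of GRCm38.p6 (RefSeq), at chr7:30944030-30944158 for Hamp and chr7:30924179-30924307 for Hamp2. Capitals mark the motif GGCGCC of a BMP-responsive element (the corresponding bases in Hamp2) and the STAT-type motif TTCTTGGAA.
Hamp: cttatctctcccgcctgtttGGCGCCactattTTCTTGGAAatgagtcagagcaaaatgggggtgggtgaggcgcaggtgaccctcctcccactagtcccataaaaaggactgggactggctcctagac
Hamp2: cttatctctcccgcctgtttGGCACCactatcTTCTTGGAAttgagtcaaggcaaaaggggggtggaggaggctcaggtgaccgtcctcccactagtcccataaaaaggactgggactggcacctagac

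The GENCODE annotation also holds a Hamp2 transcript that begins upstream of the RefSeq start, and the printed Hamp2 stretch lies in an intron of it. The stretches differed by 11 substitutions. One of them, G24A (Hamp base, position from 1 at the 5′ end of the stretch, Hamp2 base), falls in the GGCGCC motif, so these letters were not found in Hamp2, whereas TTCTTGGAA was present in both. In Hamp the motifs begin 109 and 97 bases before the start site. Searched on both strands of 32851 RefSeq windows of 300 bases, GGCGCC was in 11.9% and TTCTTGGAA in 0.417% of them. A match of letters is a description and not a binding site.

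The iron responsive elements of the ferritin, ferroportin and Tfrc transcripts were read from the GENCODE transcripts on GRCm38. They are shown because these members share a control by iron regulatory proteins. An RNA level does not measure the translation of the ferritin and ferroportin mRNAs, whereas the stability of the Tfrc mRNA acts on its RNA level. Capitals mark the 6-base loop, which begins CAGTG, and the element is 29 bases long. Fth1 holds it in the 5′ UTR at chr19:9982732-9982760 (plus strand), Ftl1 in the 5′ UTR at chr7:45459779-45459807 (minus strand) and Slc40a1 in the 5′ UTR at chr1:45925465-45925493 (minus strand). Tfrc holds 4 in its 3′ UTR on the plus strand, at chr16:32631219-32631247, chr16:32631598-32631626, chr16:32631663-32631691 and chr16:32631710-32631738.
Fth1: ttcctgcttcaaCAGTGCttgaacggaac
Ftl1: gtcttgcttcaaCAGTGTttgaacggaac
Slc40a1: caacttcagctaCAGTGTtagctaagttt
Tfrc element a: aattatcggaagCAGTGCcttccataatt
Tfrc element b: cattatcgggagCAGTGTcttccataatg
Tfrc element c: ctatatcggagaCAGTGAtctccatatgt
Tfrc element d: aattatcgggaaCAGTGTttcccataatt

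A search by the rule used here (a bulged C, 5 paired bases on either side of the loop and at least 4 of 5 further pairs) found elements in 24 of 21901 coding genes (0.11%) and in 4 of the 10 members. No match in Hamp, Hamp2, Trf, Tfr2, Bmp6 or Hfe means only that no stretch of the searched transcripts met this rule.

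The comparison of E18.5 with E16.5 asks how these genes differ between an earlier and a later stage of bile duct formation. Over all 22452 genes tested by limma on log2(TPM + 1), 7000 passed an adjusted p of 0.05, which is 31.2%. Of the genes tested, 26% were higher at E18.5 and 5.22% lower. This split depended on the scaling, as 83.3% of the calls were higher with the deposited TPM, 50.5% after quantile normalization and 38% after median-of-ratios scaling. Across all genes tested, the median log2 fold change was 0.42 with the deposited TPM and 0.0039 with median-of-ratios scaling. With the latter, 17.1% of genes passed the test (6.49% higher and 10.6% lower). Values of the genes named are therefore given under both scalings where their call, or the direction of a member, differs. The shares over all genes are also those to set beside the marker counts above. After median-of-ratios scaling 6 hepatoblast markers were lower and 5 cholangiocyte markers higher, and all 10 megakaryocyte markers stayed lower. Of the mesenchyme markers 1 was then higher, and of the leukocyte markers 0 were higher and 1 lower.

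Among the 9 members tested, 1 was higher (Slc40a1) and 1 lower (Ftl1) under both scalings, against the background shares above. Rescaling to protein-coding genes and voom on the recovered reads each called 4 of the 9, against 52.1% and 27.2% of all genes tested. E16.5 and E18.5 values were fully separate for 6 of the 9, and for 53.3% of all genes tested. The median log2 fold change of the 9 was -0.015 with the deposited TPM and -0.43 with median-of-ratios scaling, below the all-gene medians of 0.42 and 0.0039. At E16.5 Trf was the most abundant member (787 TPM), ahead of Fth1, Ftl1, Tfrc, Tfr2 and Slc40a1, with Hamp, Hfe, Bmp6 and Hamp2 far below. At E18.5 Fth1 (664 TPM) stood ahead of Trf (494 TPM), and Slc40a1, which had been below Ftl1 and Tfrc, stood above them. The ranges of neighbours in this order overlapped for Tfrc and Tfr2, Tfr2 and Slc40a1, and Hamp and Hfe at E16.5, and for Ftl1 and Tfrc, Tfr2 and Hamp, and Hamp and Hfe at E18.5. Slc40a1 and Tfrc, not neighbours, also overlapped at E16.5 (65.6 to 77.6 and 70.5 to 103 TPM). The order of genes also depends on the gene length used, here all exon bases of a gene. This was 9000 bases for Slc40a1 and 6185 for Tfrc, against 3370 and 4890 in their longest coding transcripts. The crossing of Slc40a1 and Tfrc therefore may not hold with transcript lengths. The place of Ftl1 depends on read assignment, as it shares most of its sequence with other loci. Summed with these loci it measured 256, 224 and 219 TPM at E18.5, above Slc40a1 (132 to 167 TPM).

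**Figure D1:**
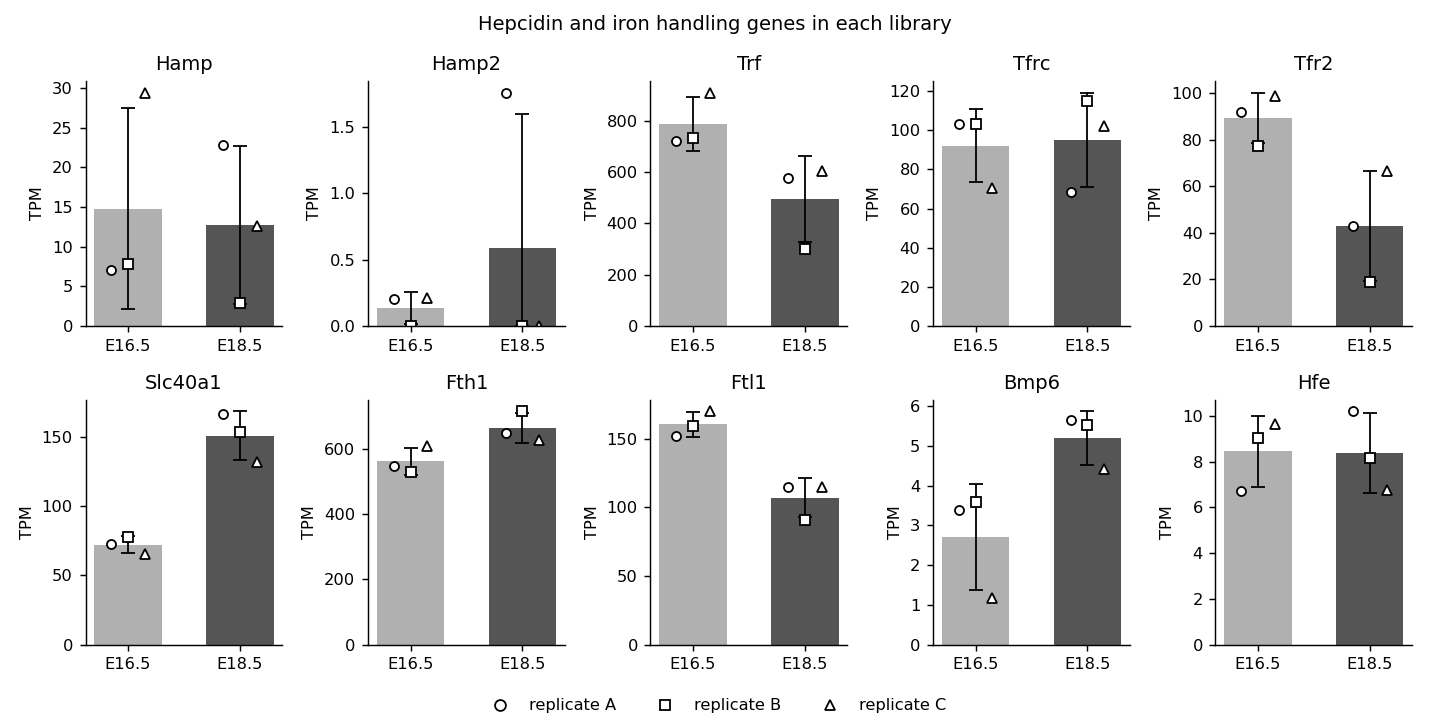
TPM of the 10 genes in each library (symbols for replicates A, B and C) with the stage mean as a bar and the SD as an error bar, cut at 0 where it would pass below. Slc40a1 was higher in every E18.5 library (132 to 167 TPM) than in any E16.5 library (65.6 to 77.6 TPM), whereas the Hamp values of the stages overlap widely.

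Hepcidin itself was low and uneven at both stages. Hamp (ENSMUSG00000050440.8, chr7:30942368-30944032, minus strand) measured 7.11, 7.82 and 29.4 TPM in E16.5 replicates A, B and C and 22.8, 2.86 and 12.6 TPM in E18.5 replicates A, B and C. The highest library exceeded the lowest 4.13-fold at E16.5 and 7.97-fold at E18.5, and the stages overlapped. The means were 14.8 ± 12.6 TPM and 12.8 ± 9.98 TPM (SD, n = 3 each), and the log2 fold change of -0.26 (SE 0.76) did not pass the test (limma adjusted p = 0.8). Its direction turned to 0.35 without E16.5 replicate C and to 0.48 without E18.5 replicate B. For scale, Hamp lay above 65.6% of coding genes at E16.5 and above 58.2% at E18.5.

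The Hamp values rest on few reads, with 25, 25 and 96 reads at E16.5 and 64, 6 and 21 reads at E18.5. Exact binomial intervals (95%, counting error only) ran from 4.6 to 10.5 TPM in E16.5 replicate A, from 23.8 to 35.8 TPM in replicate C of that stage, and from 1.05 to 6.23 TPM in E18.5 replicate B. The intervals of the highest and the lowest library of each stage did not overlap. This is not particular to Hamp, since every pair of libraries of a stage differed beyond counting noise over all genes (chi-square per degree of freedom of 15.1 or more).

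Hamp2, the second hepcidin copy (ENSMUSG00000056978.8, chr7:30922372-30924681, minus strand), was near the limit of detection. It had 1, 0 and 1 reads at E16.5 and 7, 0 and 0 reads at E18.5. The 7 reads of E18.5 replicate A gave 1.76 TPM (interval 0.706 to 3.62 TPM) and made Hamp2 7.14% of both hepcidin transcripts in that library. The counts of 0 allow up to 0.66 TPM in E16.5 replicate B and up to 1.01 and 1.27 TPM in E18.5 replicates B and C (a limit of 3 reads), and the two-sided interval reaches 0.811, 1.24 and 1.56 TPM in these libraries. The transcripts of the copies are 94.6% identical, and 16.6% of the 50-base stretches of Hamp also occur in Hamp2, so some reads could be assigned to neither or to the wrong copy.

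The genes whose pattern over the 6 libraries was most like that of Hamp were Gm38268, Plk3, Socs3, Zfp36 and Btg2, by the root mean square difference of centred log2(TPM + 1) (0.372 to 0.458 for these 5, among 15369 genes averaging 5 TPM or more). Socs3, a feedback inhibitor of cytokine signalling, measured 70.6, 73.5 and 164 TPM at E16.5 and 163, 24.8 and 181 TPM at E18.5. As with Hamp, E16.5 replicate C stood above the other E16.5 libraries and E18.5 replicate B was the lowest of all 6. Socs3 was highest in E18.5 replicate C, however, where Hamp (12.6 TPM) was below replicate A (22.8 TPM). These genes were picked by their likeness to Hamp, so the likeness is no separate result.

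Ferroportin, the only known cellular iron exporter and the target of hepcidin, rose. Slc40a1 (ENSMUSG00000025993.10, chr1:45908068-45926523, minus strand) measured 73, 77.6 and 65.6 TPM in E16.5 replicates A, B and C and 167, 154 and 132 TPM in the E18.5 libraries. The stages did not overlap, and the mean went from 72.1 ± 6.06 to 151 ± 17.5 TPM (SD, n = 3 each), 2.09-fold higher. The log2 fold change was 1.05 (SE 0.13, limma adjusted p = 0.00822), and 0.59 (SE 0.11, limma adjusted p = 0.0201) with median-of-ratios scaling. The gene passed the test under each of the 16 alternatives, with adjusted p from 0.00277 to 0.0372 by limma. None of its exon bases or 50-base stretches was shared with another gene.

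Slc40a1 is also strongly expressed by macrophages, which recycle iron from red cells. The summed level of 11 macrophage markers was 41.4 to 44.6 TPM in the E16.5 libraries and 69.4 to 108 TPM in the E18.5 libraries, with 2 of 9 tested markers higher (0 with median-of-ratios scaling) and Vsig4 at 0 in a library. In every library Slc40a1 alone exceeded this sum, which does not tell in which cells it was expressed. Csf1r, the most abundant of the markers, measured 19.4, 21.4 and 23.6 TPM and 42.3, 36.9 and 46.6 TPM, and was higher at E18.5 by 0.93 on the log2 scale (limma adjusted p = 0.0104), though not called with median-of-ratios scaling (0.48, limma adjusted p = 0.134). The part of macrophage or cholangiocyte RNA in the rise was not tested.

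The ferritin chains differed from each other. Ftl1, the L chain that favours mineralization of the iron core (ENSMUSG00000050708.16, chr7:45457944-45459884, minus strand), measured 152, 159 and 170 TPM at E16.5 and 115, 90.5 and 115 TPM at E18.5. The stages did not overlap, and the mean was 1.5-fold lower at E18.5 (160 ± 9.03 and 107 ± 14.2 TPM, SD, n = 3 each). Its log2 fold change was -0.59 (SE 0.13, limma adjusted p = 0.0198), and -1.05 (limma adjusted p = 0.0186) with median-of-ratios scaling. The call was lost without E18.5 replicate A (-0.65, limma adjusted p = 0.0571).

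Fth1, the H chain with the ferroxidase activity (ENSMUSG00000024661.6, chr19:9980598-9985098, plus strand), measured 549, 528 and 608 TPM at E16.5 and 648, 716 and 629 TPM at E18.5. All E18.5 libraries were above all E16.5 libraries, but the log2 fold change of 0.24 (SE 0.12) did not pass the test (limma adjusted p = 0.162), and it was -0.22 with median-of-ratios scaling. A ratio within a library does not depend on the scaling. The Ftl1 to Fth1 ratio was 0.277, 0.302 and 0.28 at E16.5 and 0.178, 0.126 and 0.183 at E18.5. All 3 E18.5 libraries were below all 3 E16.5 libraries, with a difference of -0.84 on the log2 scale (exact permutation test, two-sided, p = 0.1, the smallest that 3 against 3 libraries allow, and adjusted p = 0.2 over the 6 ratios tested).

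Ftl1 shares most of its sequence with other loci. Of its 50-base stretches, 90.6% occur in another gene, and its transcript is 99.6% identical to Ftl1-ps1. Ftl1-ps1 was listed at 102, 103 and 111 TPM and at 91.3, 89.6 and 75.5 TPM, a log2 fold change of -0.30 that did not pass the test (limma adjusted p = 0.0825). The annotation also places 34.6% of its exon bases in Gm10252 on the opposite strand or Gm22133 on the same strand. Ftl1 summed with the genes that share most of these stretches (Ftl1-ps1, Gm15590 and Gm10252, the last listed at no more than 1.48 TPM), a choice made after the data were seen, measured 291, 307 and 332 TPM and 256, 224 and 219 TPM. The E18.5 libraries again lay below the others, and the log2 ratio of the sum to Fth1 differed by -0.65 between the stages, with no overlap (exact permutation p = 0.1).

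**Figure D2:**
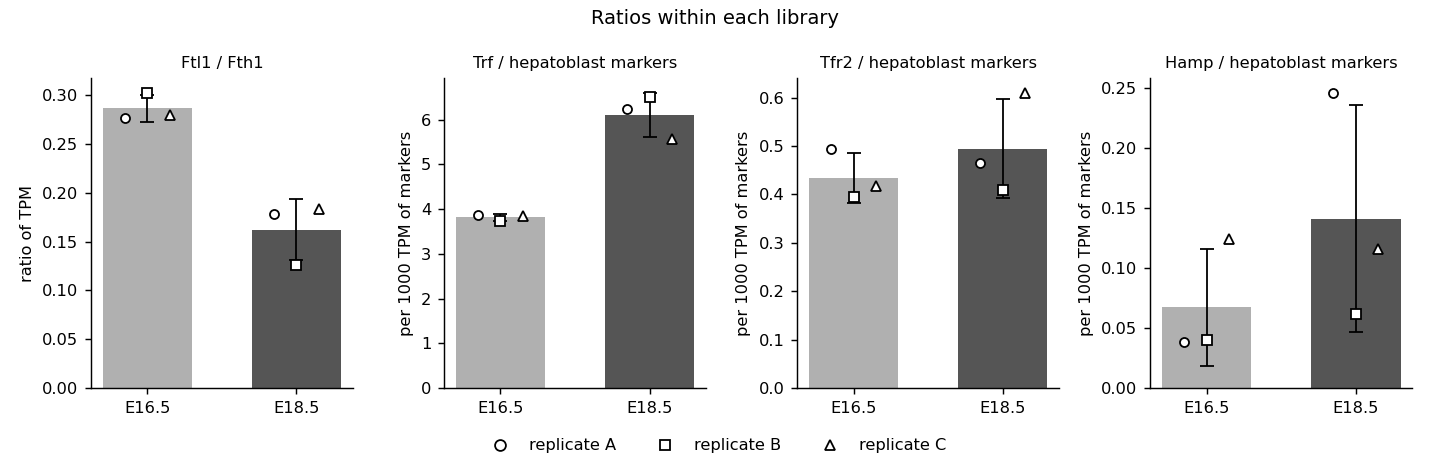
Ratios of TPM within each library, as Ftl1 over Fth1 and as Trf, Tfr2 and Hamp per 1000 TPM of summed hepatoblast markers, with the stage mean as a bar, the SD as an error bar and symbols for replicates A, B and C. Ftl1 over Fth1 was lower in all E18.5 libraries (0.126 to 0.183) than in all E16.5 libraries (0.277 to 0.302), and Trf per marker was higher in all of them.

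Transferrin, the plasma iron carrier secreted by hepatocytes, was among the most abundant transcripts. Trf (ENSMUSG00000032554.15, chr9:103204001-103230444, minus strand) lay above 99.7% of coding genes at E16.5. It measured 720, 731 and 909 TPM at E16.5 and 577, 301 and 605 TPM at E18.5, with no overlap and means of 787 ± 106 and 494 ± 168 TPM (SD, n = 3 each). The log2 fold change of -0.73 (SE 0.28) did not pass the test (limma adjusted p = 0.0818) and was -0.41 without E18.5 replicate B. The annotation places 63.5% of its exon bases also in Gm20425 on the same strand, a gene listed at or near 0.

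Tfr2, the transferrin receptor of hepatocytes that takes part in hepcidin control (ENSMUSG00000029716.13, chr5:137569840-137587481, plus strand), measured 91.8, 77.3 and 98.6 TPM at E16.5 and 43, 19 and 66.3 TPM at E18.5. All E18.5 values were below all E16.5 values. The means were 89.2 ± 10.9 and 42.8 ± 23.6 TPM (SD, n = 3 each), a 2.09-fold difference and the largest log2 fold change among the tested members in size (-1.20, SE 0.40). It did not pass the test (limma adjusted p = 0.0586, and 0.0589 with median-of-ratios scaling) but passed under 5 of 16 alternatives, among them leaving out E18.5 replicate C (-1.60, limma adjusted p = 0.0292). Without E18.5 replicate B, the lowest library, the log2 fold change was -0.72 (limma adjusted p = 0.0676). The genes most like Tfr2 in pattern were Lpl, F11, Rgn, Slc27a2 and Gls2 (root mean square differences 0.0777 to 0.124).

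The hepatoblast marker sum was lowest in the library in which Trf and Tfr2 were lowest, E18.5 replicate B. Per 1000 TPM of these markers, Trf measured 3.87, 3.73 and 3.84 at E16.5 and 6.23, 6.51 and 5.56 at E18.5. On this scale Trf was higher in all E18.5 libraries, by 0.67 on the log2 scale (exact permutation p = 0.1, adjusted p = 0.2). Tfr2 measured 0.493, 0.394 and 0.417 at E16.5 and 0.465, 0.41 and 0.609 at E18.5 per 1000 TPM of markers. These values overlapped, with a log2 difference of 0.17 (exact permutation p = 0.6, adjusted p = 0.6). Hamp on the same scale measured 0.0382, 0.0399 and 0.124 at E16.5 and 0.246, 0.0618 and 0.116 at E18.5, again with overlap (log2 difference 1.07, exact permutation p = 0.3, adjusted p = 0.45). The sum is mostly Alb. Against each of the 12 markers alone, the difference of Trf was positive for 9 markers and negative for Hnf4a, Vtn and Rbp4, that of Tfr2 was positive for 6 and negative for 6, and that of Hamp was negative for Rbp4 only. Leaving out a library moved the difference against the sum from 0.012 (without E18.5 replicate C) to 0.30 (without E18.5 replicate B) for Tfr2, and from 0.56 (without E18.5 replicate A) to 1.63 (without E16.5 replicate C) for Hamp. The share of either measure that cell composition sets was not tested.

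Tfrc, the receptor for transferrin uptake that dividing and erythroid cells express strongly (ENSMUSG00000022797.15, chr16:32608920-32632794, plus strand), gave no call in TPM. It measured 103, 103 and 70.5 TPM at E16.5 and 68.3, 115 and 102 TPM at E18.5. The stages overlapped, and the log2 fold change of 0.031 (SE 0.23) did not pass the test (limma adjusted p = 0.925) and was -0.43 with median-of-ratios scaling (limma adjusted p = 0.16). The highest value was in E18.5 replicate B, the library with the highest erythroid sum (600 TPM) and proliferation sum (815 TPM). In E18.5 replicate C, with the lowest proliferation sum (497 TPM) and an erythroid sum of 132 TPM, Tfrc still measured 102 TPM. The part of these markers in Tfrc was not tested. The Tfrc to Fth1 ratio was 0.188, 0.195 and 0.116 at E16.5 and 0.105, 0.16 and 0.162 at E18.5, with overlap (log2 difference -0.21, exact permutation p = 0.5, adjusted p = 0.6).

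The upstream genes were low. Bmp6, the ligand that links liver iron to hepcidin and is made mainly by sinusoidal endothelium in the adult (ENSMUSG00000039004.6, chr13:38345107-38500302, plus strand), measured 3.38, 3.58 and 1.16 TPM at E16.5 and 5.66, 5.52 and 4.42 TPM at E18.5. The stages did not overlap, but the log2 fold change of 0.81 (SE 0.34) did not pass the test (limma adjusted p = 0.102) and was 0.46 without E16.5 replicate C. The summed level of 12 endothelial markers was 139 to 228 TPM at E16.5 and 135 to 259 TPM at E18.5, with 1 of 12 higher. After median-of-ratios scaling 0 were higher and 1 was lower. The part of these markers in Bmp6 was not tested. Of the exon bases of Bmp6, 5.74% overlap Txndc5 on the opposite strand, and the strand setting of the counting was not given in the sources used here.

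Hfe, the MHC-like partner of the transferrin receptors (ENSMUSG00000006611.15, chr13:23702034-23710854, minus strand), measured 6.69, 9.01 and 9.65 TPM at E16.5 and 10.2, 8.16 and 6.76 TPM at E18.5. These values overlapped almost fully, with means of 8.45 ± 1.56 and 8.37 ± 1.73 TPM (SD, n = 3 each) and a log2 fold change of -0.015 (SE 0.22, limma adjusted p = 0.962). Per 1000 TPM of hepatoblast markers Hfe was higher in all E18.5 libraries (0.0621 to 0.176) than in all E16.5 libraries (0.036 to 0.0459), by 1.39 on the log2 scale (exact permutation p = 0.1, adjusted p = 0.2). Hfe was level in TPM, while its denominator, the marker sum, was lower at E18.5 (186141 to 236502 TPM at E16.5, 46326 to 108816 TPM at E18.5). Whether Hfe changed in the cells that express it was not tested.

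**Figure D3:**
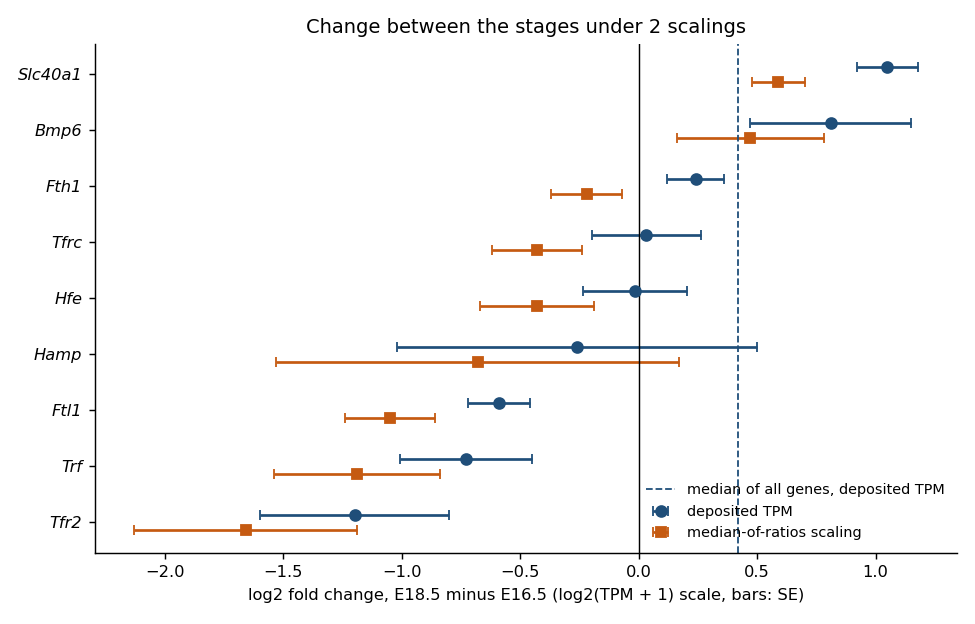
Log2 fold change of the 9 tested genes (E18.5 minus E16.5, points, with the SE as bars) with the deposited TPM (circles) and after median-of-ratios scaling (squares), on the log2(TPM + 1) scale. The dashed line is the median of all genes with the deposited TPM (0.42), and median-of-ratios values lie to the left of the TPM values for every gene.

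Other genes of iron metabolism were read from the same fit, 51 genes in 5 lists, of which 49 were tested. Of these, 18 were higher and 3 lower at E18.5 with the deposited TPM, and 6 higher and 10 lower with median-of-ratios scaling, so the balance of directions in the lists followed the scaling. Over all genes tested 26% were higher and 5.22% lower with the deposited TPM, and 6.49% and 10.6% with median-of-ratios scaling. These are the shares to set beside the counts of each list.

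Of the 20 hepcidin control genes, 11 were higher and 1 lower (median log2 fold change 0.70, against 0.42 over all genes). With median-of-ratios scaling 4 were higher and 1 lower (median 0.32, against 0.0039 over all genes). Neo1, which encodes the co-receptor neogenin that binds hemojuvelin, went from 29.4 ± 7.85 to 70.9 ± 8.44 TPM (log2 fold change 1.27, SE 0.22, limma adjusted p = 0.012). Bmpr2, a type II BMP receptor, went from 25.1 ± 6.04 to 60.3 ± 6.24 TPM (1.26, SE 0.20, limma adjusted p = 0.0106). Both passed the test under all 16 alternatives. The inhibitory SMAD gene Smad7 rose from 22.2 ± 5.86 to 48.5 ± 4.63 TPM (limma adjusted p = 0.0133) and the BMP-responsive transcription factor gene Atoh8 from 2.45 ± 1.25 to 7.79 ± 0.446 TPM (limma adjusted p = 0.0216), although Atoh8 was not called with median-of-ratios scaling (limma adjusted p = 0.0586). The receptor and SMAD genes Bmpr1a (66.1 to 115 TPM) and Smad4 (75.8 to 137 TPM) were called with the deposited TPM, and not with median-of-ratios scaling (limma adjusted p = 0.125 and 0.0514).

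The gene of this list that was lower, Il6ra, the receptor chain through which interleukin-6 induces hepcidin, fell from 25.3 ± 5.13 to 9.31 ± 4.07 TPM (log2 fold change -1.42, SE 0.32, limma adjusted p = 0.021). Tmprss6, a protease of hepatocytes that restrains hepcidin, was abundant at both stages, at 137 ± 6.14 and 127 ± 22.2 TPM, and did not pass the test (log2 fold change -0.13, limma adjusted p = 0.517). Its values overlapped between the stages.

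In the list of iron uptake and oxidation, 3 of 9 genes were higher, against 2 higher and 1 lower with median-of-ratios scaling. Cp, whose product ceruloplasmin oxidizes exported iron for loading onto transferrin, rose from 307 ± 16.3 to 695 ± 83.6 TPM (log2 fold change 1.17, SE 0.13, limma adjusted p = 0.00779, called under all 16 alternatives). Its homologue Heph went from 5.14 ± 2.29 to 11.6 ± 0.623 TPM (1.12, SE 0.31, limma adjusted p = 0.0342), and was not called with median-of-ratios scaling (limma adjusted p = 0.109). Cp passed the test in the same direction as Slc40a1, the exporter whose iron it oxidizes, as did 26% of all genes with the deposited TPM. A link between them was not tested.

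In the list of storage, iron chaperones and the iron regulatory proteins, 3 of 6 tested genes were higher and 1 lower, against 3 lower with median-of-ratios scaling. Ncoa4, the receptor that delivers ferritin for degradation, was the lower one (log2 fold change -0.65, limma adjusted p = 0.0221). Ireb2 and Fbxl5, which encode iron regulatory protein 2 and the ubiquitin ligase subunit that degrades it, were each higher by 0.65 (limma adjusted p = 0.0156 and 0.0193), but were not called with median-of-ratios scaling (both 0.19, limma adjusted p = 0.127 and 0.215). The abundant iron chaperone gene Pcbp1 measured 316 ± 14.1 and 306 ± 19 TPM, and Aco1, iron regulatory protein 1, 195 ± 14.2 and 158 ± 6.72 TPM (limma adjusted p = 0.752 and 0.0688). With median-of-ratios scaling both were called lower (-0.51 and -0.76, limma adjusted p = 0.0176 and 0.0257). Pcbp2 was higher with the deposited TPM (187 ± 11.9 and 255 ± 19.8 TPM, limma adjusted p = 0.0282) but not with median-of-ratios scaling (-0.026).

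Of the 7 tested genes for handling haem and haemoglobin, 1 was higher and 1 lower, against 3 lower with median-of-ratios scaling. Hpx, the plasma haem carrier hemopexin made by hepatocytes, fell from 1384 ± 318 to 519 ± 262 TPM (log2 fold change -1.55, SE 0.43, limma adjusted p = 0.0339). The haptoglobin gene Hp measured 525 ± 40.3 and 252 ± 181 TPM and the hemopexin receptor gene Lrp1 189 ± 14.6 and 153 ± 23.3 TPM, and neither passed the test with the deposited TPM (limma adjusted p = 0.0922 and 0.12). With median-of-ratios scaling Lrp1 was called lower (-0.78, limma adjusted p = 0.0305). Slc48a1, a haem transporter of the lysosome, was the higher gene (0.64, limma adjusted p = 0.0144), though not with median-of-ratios scaling (0.18).

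**Figure D4:**
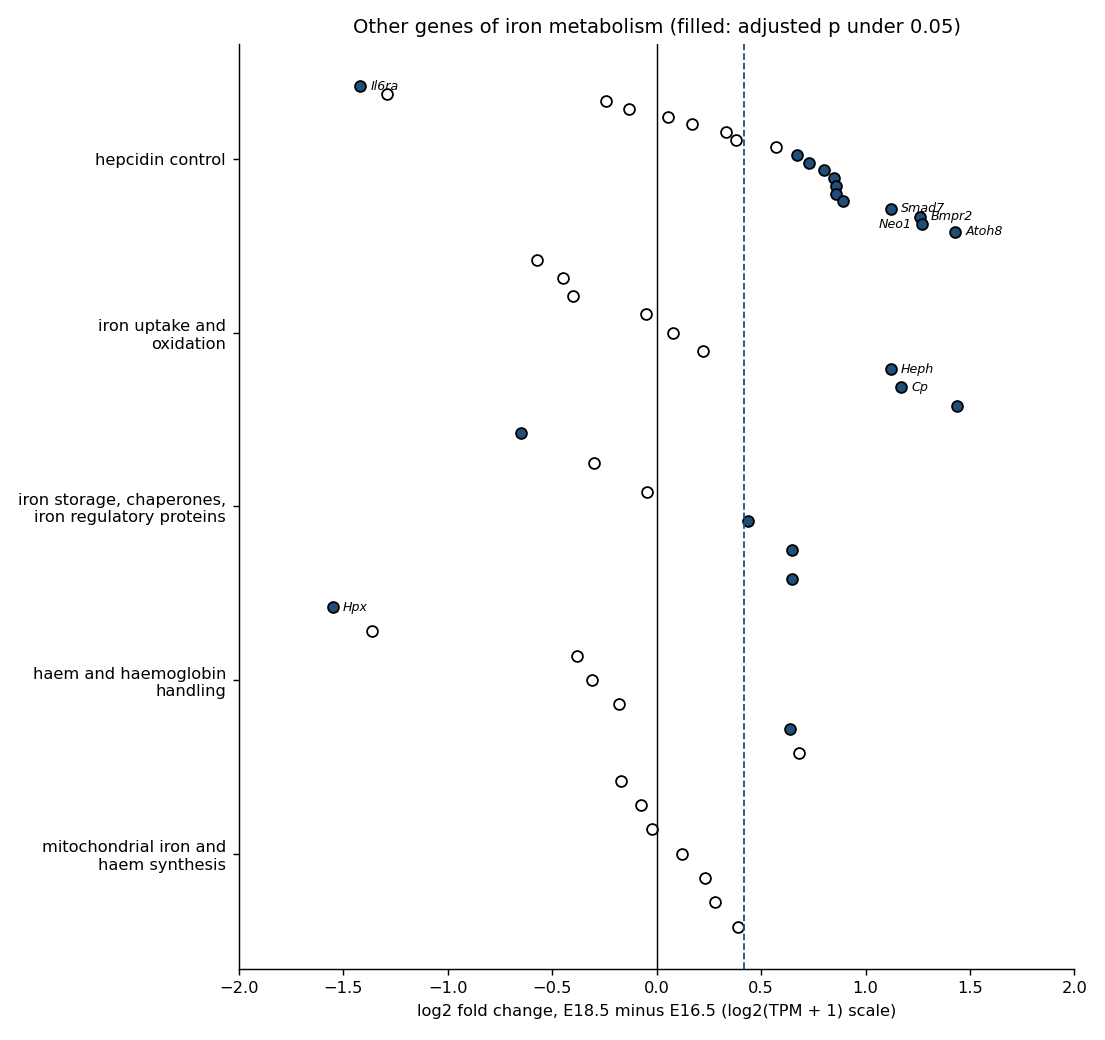
Log2 fold change (E18.5 minus E16.5, log2(TPM + 1) scale, 1 point per gene) of the 49 tested genes in 5 lists of iron metabolism, filled where the adjusted p by limma was under 0.05, with the dashed line at the median of all genes (0.42). Names are given for called genes whose log2 fold change was 1 or more in size and whose level reached 5 TPM. Of these 8 genes, 4 lie to the right in the hepcidin control list.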

How the data were processed

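The authors trimmed reads of a stranded total RNA library, aligned them with HISAT2 2.1.0 to GRCm38 and counted genes with HTSeq 0.5.4p3. The authors deposited TPM, which sum to the same total in each library, for 52550 genes in 6 libraries. The strand setting and overlap rule of the counting were not given in the sources used here. Whole reads were recovered from the TPM of 49584 genes by their exon lengths. For genes of the same version in the annotation used here, 100% of 180057 values above 0 lay within 0.01 of a whole read. For Fth1 the values imply a length of 866 bases, against 3469 in the annotation.

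E18.5 was compared with E16.5 by limma 3.58.1 (R 4.3.3) on log2(TPM + 1), for genes averaging 1 TPM or more over the libraries, with p-values adjusted by Benjamini-Hochberg over all genes and a threshold of 0.05. Fold changes are on that scale, which understates those of low genes. Ratios within libraries were tested by an exact permutation test, two-sided. Intervals are exact binomial, on the reads of a gene among all recovered reads of the library. Libraries of a stage were not copies of each other. The script was tested on simulated data.

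The members, the gene lists and the rules for naming genes were chosen with earlier results of these data known. List genes were named where called with a log2 fold change of 1 or more in size and a level of 5 TPM or more, or where they reached 100 TPM in a stage; Ncoa4, Ireb2, Fbxl5 and Slc48a1 were named after their values were seen. Alternatives were the pseudocount, the filter, 3 scalings, the limma variance step without its trend or in robust form, voom on the recovered reads, the replicate block and leaving out each library. Sequences were read from RefSeq promoter windows and GENCODE transcripts.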

Additional observations from a re-analysis of the deposited data

How the results depend on the processing

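The number of genes called (7000) was 4282 with no filter on low values, 3816 with median-of-ratios scaling and 3796 with quantile normalization, and ranged from 1472 (without E18.5 replicate A) to 5686 when a library was left out; it was 4376 without E16.5 replicate A, 4082 without E16.5 replicate C and 2917 without E18.5 replicate B. Of the members, 4 were called after rescaling to protein-coding genes without haemoglobins (52.1% of all genes) and 4 by voom on recovered reads (27.2% of all genes). When a library was left out, 1 to 3 members were called. There was 1 without E18.5 replicate A (6.57% of all genes) and 3 without E18.5 replicate C (25.6% of all genes). Tfr2 passed the test with a minimum of 5 TPM (-1.20), after the protein-coding rescaling (-1.12), with the replicate block (-1.20) by voom (-1.39) and without E18.5 replicate C (-1.60). Trf passed by voom only (-0.87) and Bmp6 after the protein-coding rescaling only (0.93). Directions turned for Tfrc under median-of-ratios scaling (-0.43), after quantile normalization (-0.20) and by voom (-0.12), for Fth1 with median-of-ratios scaling (-0.22), for Hfe after the protein-coding rescaling (0.066), and for the median of the storage and iron regulatory protein list with no filter (-0.017) and with median-of-ratios scaling (-0.27). The median of the uptake and oxidation list (0.077) also turned, to -0.36 under median-of-ratios scaling, -0.32 after quantile normalization, -0.066 by voom and -0.012 without E16.5 replicate C, and that of the mitochondrial list (0.12) to -0.31, -0.29 and -0.036 under the first 3 of these. With the geometric mean of the markers as denominator, added after seeing the data, log2 differences were 1.02 for Hamp, 0.62 for Trf, 0.12 for Tfr2 and 1.34 for Hfe. Without a library, log2 fold changes ranged from -0.84 to 0.48 for Hamp, -0.15 to 0.25 for Tfrc, -1.60 to -0.72 for Tfr2, -0.65 to -0.47 for Ftl1 and -0.16 to 0.11 for Hfe. The cause was not tested.

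The sources do not say whether the shared replicate letters pair the libraries. Deviations from the stage means correlated at -0.042 (A), 0.081 (B) and 0.140 (C) over 22452 genes, and not every library correlated best with its own letter. Such correlations over 3 libraries a stage cannot decide whether the letters mark a shared origin. With the letter as a replicate block 7314 genes (32.6% of those tested) and 3 members were called. Of the members only the call of Tfr2 changed (limma adjusted p = 0.0355). With 3 libraries a stage the exact permutation test of a ratio cannot go below p = 0.1, and Hamp and Hamp2 rest on few reads.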

Other observations

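The 7 genes of mitochondrial iron import, iron-sulfur cluster assembly and haem synthesis gave no call by limma with the deposited TPM, with 0 at an unadjusted p under 0.05 and 0 of the 5 whose reads were recovered called by voom. With median-of-ratios scaling 2 were lower. Those were Alas1, the first enzyme of haem synthesis outside erythroid cells (23.2 ± 2.83 and 21.9 ± 2.12 TPM, SD, n = 3, limma adjusted p = 0.0339), and Fech, which inserts iron into protoporphyrin (58 ± 7.24 and 51.6 ± 9.86 TPM, limma adjusted p = 0.0249). Alas2, the erythroid form of the first enzyme, measured 24 ± 1.28 and 29.3 ± 2.76 TPM. The erythroid importer gene Slc25a37 measured 25 ± 2.19 and 26.1 ± 11.6 TPM, with a wider spread at E18.5. These genes were named after their values were seen.

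Hjv, the gene of the BMP co-receptor hemojuvelin (listed as Hfe2), measured 12.9 ± 6.58 TPM in the E16.5 libraries and 5.91 ± 6.26 TPM in the E18.5 libraries, and did not pass the test (log2 fold change -1.29, limma adjusted p = 0.146). Its spread within each stage was wide, as was that of Hamp.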
